A study of Mus musculus with 2 samples.

Results

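B1 elements, the mouse relatives of the primate Alu elements, and their proto-B1 (PB1) predecessors were described in the H3.3S31ph profile of mitotic mouse embryonic stem (ES) cells. All repeat types whose name begins with B1 or PB1 were taken, which gave 14 of the 952 repeat types counted. The data were 1 chromatin immunoprecipitation (ChIP) sample and 1 input sample, the latter sequenced without immunoprecipitation. Both came from wild-type ES cells of the strain 129S1/SvImJ that had been held for 12 h in 9 µM RO-3306, a CDK1 inhibitor, washed, and collected in mitosis after a further 11 h. The antibody recognised histone H3.3 phosphorylated at serine 31. Each sample was sequenced in 2 lanes, and there was no biological replicate, so every interval below is a 95% exact conditional interval that covers counting error only. The counts are of repeat types and cannot check the labelled cell type or the mitotic stage.

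B1 elements are short interspersed elements (SINEs). They descend from 7SL RNA, the RNA of the signal recognition particle, carry an internal RNA polymerase III promoter, and are copied into new sites by the L1 machinery. In the mouse genome they lie mostly in gene-rich chromatin, and successive subtypes arose as the family aged, so that B1_Mus1, B1_Mus2 and B1_Mm hold younger copies than B1F or the PB1 rows. H3.3 is the histone H3 variant deposited outside DNA replication. Phosphorylation of its serine 31 is a mitotic mark best known from telomeres and pericentromeric chromatin.

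The 14 rows together held 796152 of 12235477 ChIP reads and 603943 of 8856751 input reads in the tables. This was 6.51% (6.49 to 6.52) of the ChIP reads and 6.82% (6.80 to 6.84) of the input reads. The ratio of a row is its share of the ChIP reads divided by its share of the input reads, and for the pooled family it was 0.954 (0.951 to 0.957), with 0.953 in lane 1 and 0.956 in lane 2. The family thus lay slightly below its input share when table totals set the scale. It lay above most other repeats, since the median over the 704 rows with at least 100 input reads was 0.805. Relative to that median row the pooled family stood at 1.19 (1.18 to 1.19).

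The scale between the libraries decided on which side of input the family lay. The telomeric array, listed as (CCCTAA)n, took 1025528 ChIP reads, and leaving this 1 row out of the totals moved the pooled B1 ratio from 0.954 to 1.04. On the scale that underlies the log2 ratios of the authors' deposited table it was 1.07, and with the MIR and L2 rows set to 1 it was 1.14. In the authors' deposited table all 14 rows had a conservative log2 value above 0 in each lane, and the deposited log2 ratios ran from 0.045 to 0.161 in lane 1 and from 0.048 to 0.166 in lane 2. Of all 952 rows the same column was above 0 for 13.3% in lane 1 and 12.9% in lane 2. The 952 rows include rows with fewer than 100 input reads, so this contrast is not matched for depth. The direction of B1 elements against input thus depended on the scale. Ratios between 2 repeat types, called direct ratios below, do not depend on it, because the scale cancels.

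**Figure D1:**
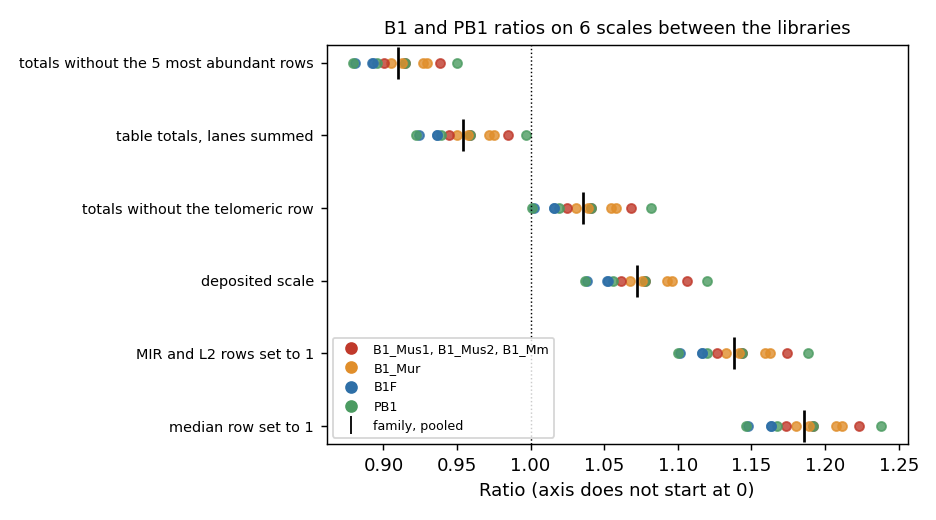
Ratio of ChIP share to input share (x axis) of the 14 B1 and PB1 rows (dots, coloured by subtype group) and of the pooled family (black tick) on 6 scales between the libraries (y axis). The pooled family lies at 0.954 with table totals and at 1.04 without the telomeric row, while the order of the dots is the same on every scale.

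Young subtypes came first. B1_Mus1, with the most reads of the family, had 64795 ChIP and 48728 input reads in lane 1 and 63035 and 47743 in lane 2, a ratio of 0.959 (0.951 to 0.967). B1_Mus2 had 42694 ChIP and 31345 input reads in lane 1 and 41430 and 30507 in lane 2, a ratio of 0.985 (0.974 to 0.995). B1_Mm had 23912 ChIP and 18309 input reads in lane 1 and 23087 and 17708 in lane 2, a ratio of 0.945 (0.932 to 0.958). The 3 young rows thus differed among themselves, and the order B1_Mus2, B1_Mus1, B1_Mm held in both lanes. B1_Mus2 exceeded B1_Mus1 by a direct ratio of 1.03 (1.01 to 1.04) and B1_Mm by one of 1.04 (1.02 to 1.06). B1_Mus1 and B1_Mm were not separated beyond counting error, at 1.02 (0.999 to 1.03).

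The 4 B1_Mur rows, murine subtypes that stand in neither the young nor the older group here, overlapped the young rows. B1_Mur4 had 66530 ChIP and 49386 input reads over both lanes and a ratio of 0.975 (0.964 to 0.987). B1_Mur3 followed with 43068 and 32071 reads and a ratio of 0.972 (0.958 to 0.986). B1_Mur2, with 54014 and 40841 reads, had a ratio of 0.957 (0.945 to 0.970), and B1_Mur1, with 65286 and 49759 reads, one of 0.950 (0.939 to 0.961). The 4 values followed the numbering from B1_Mur4 down to B1_Mur1 in both lanes, which share the same libraries. The ends of this series were separated, with B1_Mur4 over B1_Mur1 at 1.03 (1.01 to 1.04), but no single step was. B1_Mur4 over B1_Mur3 was 1.00 (0.985 to 1.02), B1_Mur3 over B1_Mur2 was 1.02 (0.996 to 1.04) and B1_Mur2 over B1_Mur1 was 1.01 (0.991 to 1.03).

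The B1F rows, older B1 subtypes, lay low and close together. B1F had 33602 ChIP and 26345 input reads in lane 1 and 33153 and 25952 in lane 2, a ratio of 0.924 (0.913 to 0.935). B1F1 had 30653 ChIP and 23695 input reads over both lanes and a ratio of 0.936 (0.921 to 0.952). B1F2 had 24915 and 19266 reads and the same rounded ratio of 0.936 (0.919 to 0.954). No pair of the 3 was separated. B1F1 over B1F2 was 1.00 (0.975 to 1.03) and B1F2 over B1F was 1.01 (0.991 to 1.04).

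The 4 PB1 rows, named for proto-B1, held both ends of the whole family. PB1D9 had 20576 ChIP and 14888 input reads in lane 1 and 19939 and 14537 in lane 2, and its ratio of 0.997 (0.982 to 1.01) was the highest of the 14 rows. PB1D10 had 47077 ChIP and 36639 input reads in lane 1 and 45399 and 35930 in lane 2, and its ratio of 0.922 (0.913 to 0.931) was the lowest. The direct ratio of PB1D9 over PB1D10 was 1.08 (1.06 to 1.1), with 1.08 in lane 1 and 1.09 in lane 2, the widest among all 91 pairs of rows. PB1, with 19194 ChIP and 14791 input reads, had a ratio of 0.939 (0.919 to 0.960), and PB1D9 exceeded it by 1.06 (1.03 to 1.09). PB1D7 had 17196 ChIP and 12695 input reads in lane 1 and 16597 and 12808 in lane 2, with a ratio of 0.959 (0.944 to 0.975). It was the row on which the lanes differed most, at 0.975 in lane 1 and 0.943 in lane 2, a difference of 2.01 counting standard errors. This value was picked as the largest over the 14 rows, and no allowance was made for that choice.

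**Figure D2:**
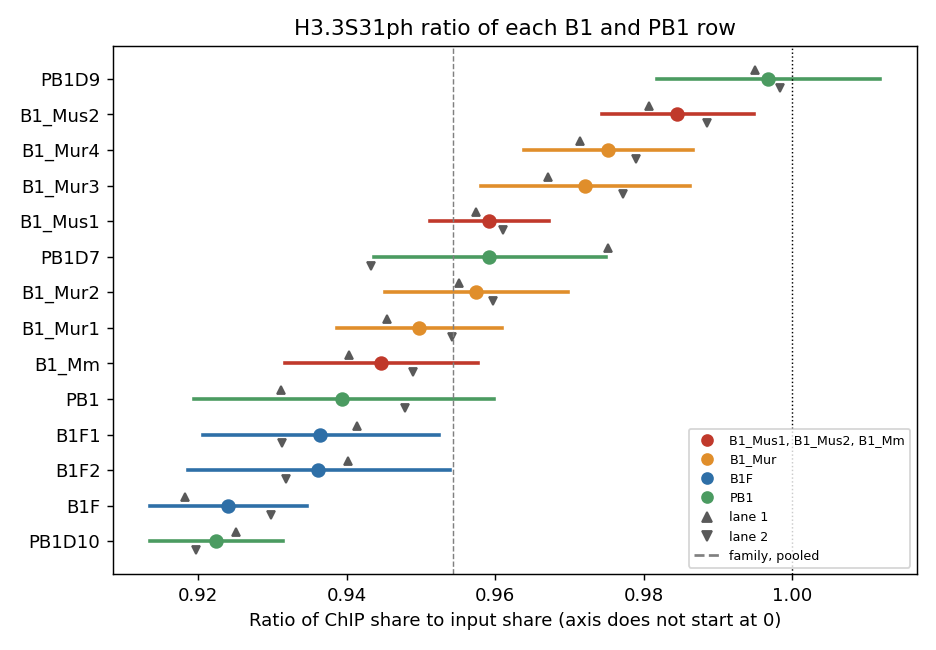
Ratio of ChIP share to input share (x axis) for each B1 and PB1 row (y axis, ordered by ratio), with the 95% counting interval as a bar, lane 1 as an upward and lane 2 as a downward triangle, and the pooled family as a dashed line. PB1D9 at 0.997 and PB1D10 at 0.922 are the ends of the order, and both belong to the PB1 rows.

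All 14 rows had ratios below 1 in each lane with table totals, and for 13 of 14 the interval of the summed lanes lay below 1. PB1D9 alone had an interval that included 1, against 12.6% of all rows. Of all 704 rows, 79.5% had an interval below 1, so the share among the B1 rows was not far from that of repeats at large. Without the telomeric row in the totals, 0 of 14 B1 and PB1 rows lay below 1, against 64.1% of all rows, and 9 of 14 lay above it, against 12.9%. On the deposited scale all 14 rows lay above 1, against 15.5% of all rows with 55.7% below. With MIR and L2 rows set to 1 all 14 again lay above 1, against 20.9% of all rows with 34.2% below. None of the 14 rows lay above 1 with table totals, against 7.81% of all rows. In contrast, the interval of all 14 rows lay above the median row, against 27.3% of all rows. None of the 14 lay below it, against 19.2% of all rows, and all 14 were at least 1.1 times the median row, against 22.3%. Counts against the median row do not change with the scale. Other SINEs also lay above the median row: all 3 B2, 2 B3, 3 ID and 4 MIR rows and all 3 rows of the B4 and ID_B1 group had intervals above it. All B2 and all ID rows also reached 1.1 times the median row. Only 1 of 2 B3 rows, 1 of 3 rows of the B4 and ID_B1 group and 0 of 4 MIR rows did so. Interval calls depend on depth as well as on the ratio. Each B1 or PB1 row had at least 14791 input reads, whereas the minimum for the 704 rows was 100. The shares of all rows are therefore not matched for depth. By ratio alone, the 14 rows lay between percentiles 81.25 and 87.78 of the 704 rows.

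The family formed a narrow band relative to all repeats. Its log2 ratios had a standard deviation of 0.034 over the 14 rows and spanned 0.11 from lowest to highest, while the middle 50% of the 704 rows alone spanned 0.19. Other SINE groups, of 2 to 4 rows each, spanned less in ID (0.026), B3 (0.041) and MIR (0.065). The span was larger in B2 (0.139) and in the B4 and ID_B1 group (0.170). The median counting standard error of a B1 or PB1 row was 0.0098 on the same log2 scale. Neighbours in the order of ratios were not separated in any of 13 cases, but 52 of all 91 pairs were. The pairs share the same 14 rows, so they are not independent, and no allowance was made for the number of pairs. At the depth of these rows small differences are separated. The share of separated pairs among other rows of like depth was not computed. Each of those 52 went the same way in both lanes. That is no separate check, because the 52 were selected on the sum of these lanes. Across the 14 rows the log2 ratios of lane 1 and lane 2 had a Pearson's r of 0.856 and a Spearman's rho of 0.829. This is a description, since the lanes share the same libraries. The ratio had little relation to abundance, with a Spearman's rho of 0.099 between ratio and input reads across the 14 rows.

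**Figure D3:**
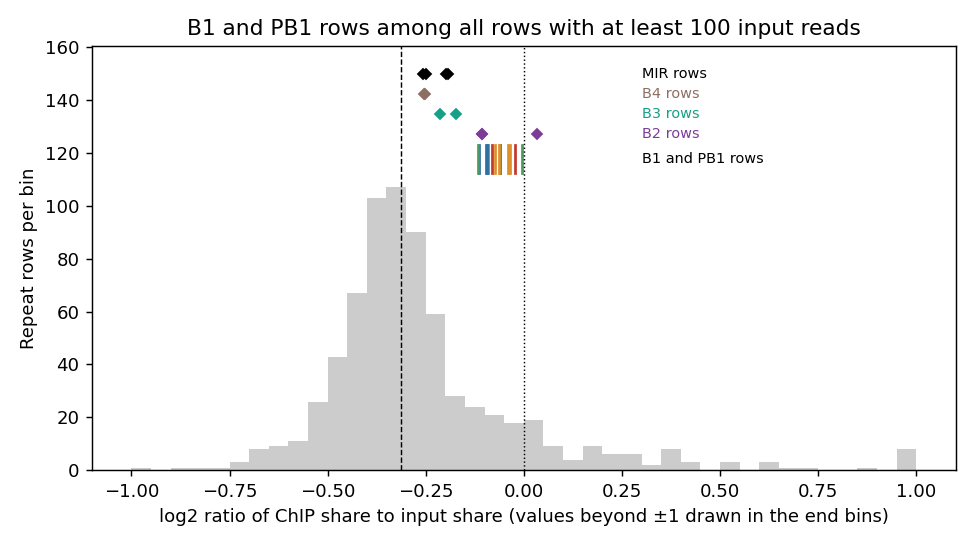
Distribution of log2 ratios over the 704 rows with at least 100 input reads (grey bars, rows per bin), with the B1 and PB1 rows as coloured ticks, other SINE rows as diamonds, the median row as a dashed line and a ratio of 1 as a dotted line. The B1 and PB1 ticks sit between the median row at -0.31 and the input level at 0.

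The rows kept close company in the ranking of abundant repeats too. The smallest member, PB1, had 14791 input reads, and 99 rows had at least that many. The 14 B1 and PB1 rows took ranks 11 to 28 among these 99 by ratio. Only 4 other rows fell inside their range, of which ID_B1, B2_Mm2 and B2_Mm1t are SINEs and RLTR45-int, named after its value was seen, is a retroviral internal sequence. A further 10 rows lay above all members and 71 lay below them. The 10 included B2_Mm1a, and the others were satellites, the telomeric array and retroviral internal sequences.

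Young subtypes were then set against older ones by direct ratios. Pooled over rows, young B1 exceeded the older B1F and PB1 rows by 1.03 (1.02 to 1.03), with 1.02 (1.01 to 1.03) in lane 1 and 1.03 (1.02 to 1.04) in lane 2. This is a difference of 2.67%, and it moved the young rows from 32.2% of the family's input reads to 32.5% of its ChIP reads, and the older rows from 39.3% to 38.7%. Against the B1F rows alone the direct ratio was 1.04 (1.03 to 1.05), and against the PB1 rows alone it was 1.02 (1.01 to 1.03). The difference between young and older rows was therefore larger than counting error. The single rows PB1D9 and PB1D10 lay further apart, at 1.08. They are the highest and lowest rows of the family, so this is not a like comparison with pooled groups.

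The comparison of young with PB1 rows rested on which rows were counted on either side. Without PB1D10, which held 72569 of 142288 PB1 input reads, young over PB1 was 0.994 (0.982 to 1.005), and without PB1D9 it was 1.03 (1.02 to 1.04). Without B1_Mus2 it was 1.01 (0.9996 to 1.02), an interval that included 1. With every row given equal weight it was 1.01. The comparison with all older rows kept its direction when any single row was left out, from 1.02 without B1_Mus2 to 1.04 without PB1D9. The comparison with B1F ran from 1.03 without B1_Mus2 to 1.04 without B1_Mus1.

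Of the 21 pairs of 1 young and 1 older row, 12 had an interval above 1, 2 had one below 1 and 7 included 1. These pairs share rows and are not independent, and the share among other rows of like depth was not computed. Both pairs below 1 involved PB1D9, at 0.962 (0.946 to 0.979) for B1_Mus1 over PB1D9 and 0.948 (0.929 to 0.967) for B1_Mm over PB1D9. Leaving PB1D9 out, a choice made on these same values, gave 12 of 18 pairs above 1. The count of 0 below was then fixed by that choice and is no separate result. Against the 3 B1F rows 7 of 9 pairs lay above 1, and against the 4 PB1 rows 5 of 12. Single lanes separated fewer pairs, namely 7 higher and 3 lower pairs in lane 1, and 11 higher and 2 lower pairs in lane 2.

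The young rows contributed unequally to these counts. B1_Mus2 exceeded 6 of the 7 older rows, by up to 1.07 (1.05 to 1.08) over PB1D10, and was not separated from PB1D9, at 0.988 (0.970 to 1.01). B1_Mus1 exceeded 4 of 7, with 1.04 (1.02 to 1.05) over B1F. B1_Mm exceeded only B1F, at 1.02 (1.004 to 1.04), and PB1D10, at 1.02 (1.01 to 1.04), and the other 5 of its pairs held 1 lower and 4 that were not separated. B1_Mus1 and PB1D7 had the same rounded direct ratio of 1.00 (0.982 to 1.02), and the lanes fell on opposite sides of 1 for this pair.

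**Figure D4:**
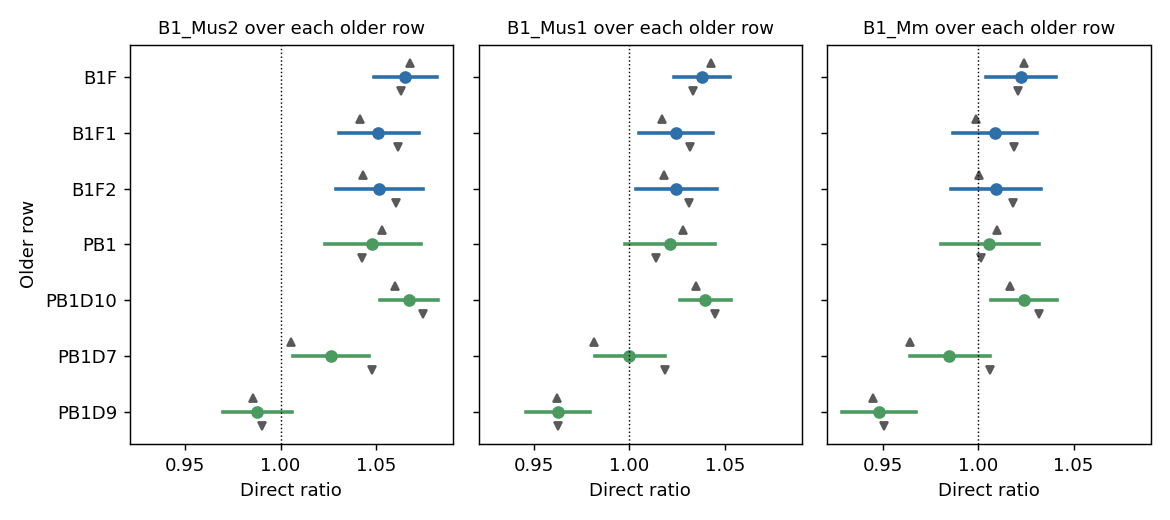
Direct ratio (x axis) of each young row, 1 per panel, over each older row (y axis, B1F rows in blue and PB1 rows in green), with 95% counting intervals as bars and lanes 1 and 2 as upward and downward triangles. B1_Mus2 lies to the right of 1 against every older row except PB1D9, and all 3 young rows lie to the left of 1 against PB1D9.

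The B1_Mur rows stood with the young rows. Young over B1_Mur was 1.00 (0.993 to 1.01), so these groups were not separated beyond counting error. B1_Mur over the older rows was 1.03 (1.02 to 1.03), over B1F 1.04 (1.03 to 1.05) and over PB1 1.02 (1.01 to 1.03), the last with an interval of 0.997 to 1.02 in lane 1 that included 1. B1_Mur over PB1 turned to 0.992 (0.980 to 1.004) without PB1D10. Among the older groups, PB1 exceeded B1F by 1.02 (1.01 to 1.03), although in lane 2 this interval, 0.998 to 1.03, included 1. That difference rested on single rows. It was 1.004 (0.992 to 1.02) without PB1D9 and 1.01 (0.996 to 1.03) without the single row B1F, and both intervals included 1. Without PB1D10 it was 1.04 (1.03 to 1.06). Left out singly, PB1D10 and PB1D9 moved B1_Mur over older to 1.02 and 1.03.

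Compared with other SINEs, the family lay near B2 and above B3, B4 and MIR. B2 elements are tRNA-derived SINEs of rodents that also use RNA polymerase III. The pooled direct ratio of B1 and PB1 over the 3 B2 rows was 1.02 (1.01 to 1.02), and it turned to 0.988 (0.976 to 1.001) when B2_Mm2, which held 139563 of 187764 B2 input reads, was left out, and to 0.994 with each row given equal weight. B1 and PB1 thus had no stable difference from B2. B2_Mm1a exceeded the family, whose direct ratio to it was 0.933 (0.915 to 0.951), and it exceeded each of B1_Mus2, at 0.962 (0.942 to 0.983), B1_Mus1, at 0.938 (0.919 to 0.957), and B1_Mm, at 0.923 (0.902 to 0.945). Against B2_Mm2 and B2_Mm1t the family was higher, at 1.03 (1.02 to 1.03) and 1.03 (1.01 to 1.04).

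The distance to the other SINE groups was wider. B1 and PB1 over the 2 B3 rows was 1.09 (1.08 to 1.09), over the 3 ID rows 1.07 (1.05 to 1.08), and over the 4 MIR rows, ancient tRNA-derived SINEs shared among mammals, 1.13 (1.12 to 1.14). For all 3 comparisons the lanes gave intervals above 1. The older B1F and PB1 rows also lay above the 4 MIR rows, at 1.11 (1.1 to 1.12). Against B2 as a whole these older rows stood at 1.00 (0.993 to 1.01), and at 0.973 (0.960 to 0.986) without B2_Mm2.

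Rows that share sequence with B1 differed in level. ID_B1, a row whose name joins the ID and B1 families, had a ratio of 0.944 (0.937 to 0.950) within the range of the B1 rows, and B1 and PB1 exceeded it by 1.01 (1.004 to 1.02). B4 elements, which combine ID-like and B1-like parts, lay lower, with B1 and PB1 over B4 at 1.14 (1.13 to 1.15) and over B4A at 1.14 (1.13 to 1.15). ID_B1 over B4 was 1.12 (1.11 to 1.14). The parent RNA gene family, 7SLRNA, had a ratio of 0.809 (0.706 to 0.926) and lay below the family, whose direct ratio to it was 1.18 (1.03 to 1.35). That interval is wide, since 7SLRNA had 458 ChIP and 410 input reads, and whether its copies share reads with B1 rows was not tested. A further row of the fixed set, a small RNA with B1-like sequence, had a ratio of 0.986 (0.891 to 1.09), within the range of the B1 rows. B1 and PB1 were not separated from it, at 0.968 (0.873 to 1.07), and it exceeded 7SLRNA by 1.22 (1.03 to 1.45).

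B1 subtypes are near-identical over long stretches, so a read of 50 bp can match several rows. The sources used here do not say how such reads were assigned. Dividing them evenly among the matching rows would bring direct ratios between B1 rows closer to 1, which bears on the narrow band of the family and on the closeness of B1_Mur and young rows, and its part in these values was not tested. Base composition of the rows was not analysed here either.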

How the data were processed

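Per the labels' protocols, chromatin was fixed for 10 min in 0.4% formaldehyde and sheared to about 300 bp, and libraries from 20 ng of DNA were amplified for 10 cycles and sequenced as single 50 bp reads. Bowtie 1.0.0 and the build mm9 are named in the submitters' processing notes. The authors deposited raw read counts per repeat type for ChIP and input, 1 table per lane, and the authors' log2 ratios with bounds. The sources used here do not state how reads with several matches or duplicates were handled. Adding 0.5 to both counts and subtracting 1 constant per lane from their log2 ratio returned the deposited values to within 0.0005. That constant rounds to 0.31 for lane 1 and to 0.29 for lane 2. Lane totals ran from 4389635 to 6204712 reads.

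Lanes were summed. Ratios used table totals as the scale, with Clopper-Pearson intervals, and direct ratios used the conditional odds-ratio interval (SciPy 1.17.1, Python 3.11.15). Both were tried on data simulated with independent counting error, which is the error that the intervals assume. That trial checks the calculation and no other source of error, and the intervals cover counting error only. With 1 sample per group no test between conditions was made. All members passed the minimum of 100 input reads. Every member is named, and other rows come from a fixed set of SINE and RNA names unless said otherwise. The ID rows (ID2, ID4 and ID4_) and the MIR rows MIR3 and MIRc were not in that set. Alternatives were single lanes, other scales, other minimums, 1 added read, equal weights and single rows left out. The totals without the telomeric row, and the alternatives for direct ratios of B1_Mur over B1F and over PB1, PB1 over B1F, the family over B3, ID and MIR, and older rows over B2 and MIR, were added after values were seen. Members and lists were chosen with earlier results of these data known.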

Additional observations from a re-analysis of the deposited data

How the results depend on the processing

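The scale between the libraries adds 1 constant to every log2 ratio, so it moves every row alike and leaves direct ratios and the order of rows as they are. With table totals the pooled ratio was 0.954, the median log2 ratio -0.069, and 13 rows had an interval below 1 and 0 above. With the median row set to 1 ratios were 1.24 for PB1D9, 1.22 for B1_Mus2, 1.21 for B1_Mur4 and B1_Mur3, 1.19 for B1_Mus1, PB1D7 and B1_Mur2, 1.18 for B1_Mur1, 1.17 for B1_Mm and PB1, 1.16 for B1F1 and B1F2 and 1.15 for B1F and PB1D10, the pooled ratio was 1.19 and the median log2 ratio 0.24. With MIR and L2 rows set to 1 ratios were 1.19 for PB1D9, 1.17 for B1_Mus2, 1.16 for B1_Mur4 and B1_Mur3, 1.14 for B1_Mus1, PB1D7 and B1_Mur2, 1.13 for B1_Mur1 and B1_Mm, 1.12 for PB1, B1F1 and B1F2 and 1.1 for B1F and PB1D10, the pooled ratio was 1.14 and the median log2 ratio 0.19. On the deposited scale ratios were 1.12 for PB1D9, 1.11 for B1_Mus2, 1.1 for B1_Mur4, 1.09 for B1_Mur3, 1.08 for B1_Mus1, PB1D7 and B1_Mur2, 1.07 for B1_Mur1, 1.06 for B1_Mm and PB1, 1.05 for B1F1 and B1F2 and 1.04 for B1F and PB1D10, the pooled ratio was 1.07 and the median log2 ratio 0.100. Without the telomeric row in the totals, chosen after seeing the data, ratios were 1.08 for PB1D9, 1.07 for B1_Mus2, 1.06 for B1_Mur4, 1.05 for B1_Mur3, 1.04 for B1_Mus1, PB1D7 and B1_Mur2, 1.03 for B1_Mur1, 1.02 for B1_Mm, PB1, B1F1 and B1F2 and 1.00 for B1F and PB1D10, the pooled ratio was 1.04 and the median log2 ratio 0.049. Under these 4 scales 0 rows had an interval below 1, and those above 1 numbered 14 under the first 3 and 9 without the telomeric row. Leaving out the 5 rows with most input reads moved the scale the other way, to a pooled ratio of 0.910 and a median log2 ratio of -0.14. With lane 2 alone 12 rows, in place of 13, had an interval below 1, and PB1D7, at 0.975 in lane 1 and 0.943 in lane 2, fell outside its interval of 0.944 to 0.975. Lane 1 alone, 1 added read and other minimums left the 13 unchanged. Young over PB1 was 1.01 with equal weights for each row, B1 and PB1 over B2 turned to 0.994, B1 and PB1 over MIR was 1.11 and older over B2 0.985. Leaving out 1 row at a time gave 1.02 to 1.04 for young over older, 1.03 to 1.04 for young over B1F, 0.994 to 1.03 for young over PB1, 0.992 to 1.01 for young over B1_Mur, 1.02 to 1.03 for B1_Mur over older and 0.988 to 1.03 for B1 and PB1 over B2, the value 0.988 being that without B2_Mm2. Among comparisons whose alternatives were chosen after seeing the data, it gave 1.03 to 1.04 for B1_Mur over B1F, 0.992 to 1.03 for B1_Mur over PB1, 1.004 to 1.04 for PB1 over B1F, 1.08 to 1.11 for B1 and PB1 over B3, 1.06 to 1.07 over ID and 1.12 to 1.13 over MIR, 1.1 to 1.12 for older over MIR and 0.973 to 1.01 for older over B2. No paired analysis was possible because each group holds 1 sample. Depth limits a row's log2 ratio to a counting standard error of 0.0062 to 0.016, which does not cover differences between cultures.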

Other observations

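FAM and FLAM_A, 2 rows of 7SL-derived Alu monomers chosen after their values were seen, held few reads. FAM had a ratio of 0.901 (0.719 to 1.13) and FLAM_A one of 0.952 (0.659 to 1.38), with table totals as the scale. Both intervals cover the whole range of the 14 B1 and PB1 rows, so at this depth neither row could be separated from them. RSINE1, a further rodent SINE row chosen in the same way, had a ratio of 0.882 (0.876 to 0.888), below every B1 and PB1 row.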
